A study of Homo sapiens with 12 samples.

Results

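The ERBB receptors EGFR, ERBB2, ERBB3 and ERBB4 and the inhibitory proteins ERRFI1, LRIG1, LRIG3, CBL and CBLB were followed through long erlotinib exposure in lung adenocarcinoma cells. These 9 genes were taken by name from a list, out of 19775 genes whose symbol stands alone on at least 1 probe set of the array. Every probe set (a group of short probes that reads 1 stretch of a transcript) that carried only the symbol of such a gene was kept, because probe sets of 1 gene can disagree. There were 35 of them: 9 for EGFR, 3 for ERBB2, 5 for ERBB3, 4 for ERBB4, 1 for ERRFI1, 4 for LRIG1, 1 for LRIG3, 5 for CBL and 3 for CBLB. Of these, 23 reached the median signal of the whole table, 13, in at least 1 group and were tested, and each of the 9 genes had at least 1 such probe set. A probe set that passed only through the group in which it is bright had to differ between groups, so counts over the 23 describe those 23 and not the other 12.

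Messenger RNA was measured on 12 Affymetrix arrays, 3 for each of 4 groups. The human lines PC9 and HCC827, both derived from lung adenocarcinoma with an activating EGFR mutation, were kept for 8 days in DMSO, the solvent, or in 2 µM erlotinib, an inhibitor of the EGFR kinase, in medium with 10% serum that was replaced after 4 days. HCC827 is also known for amplification of EGFR. DMSO cultures were started from 1500000 cells in 10 cm dishes and erlotinib cultures from 8000000 cells in 150 cm flasks, while the series description gives the larger flasks for every culture, so drug, plated density and vessel cannot be told apart. Nothing in the labels ties the 3 arrays of a group to cultures grown apart, and the p-values measure the spread between these arrays, which may be technical.

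The ERBB receptors are tyrosine kinases of the cell surface that pair with each other when ligands bind and then signal through RAS and ERK and through PI3 kinase and AKT. ERBB2 binds no ligand and serves as a partner, and ERBB3 has little kinase activity of its own but is a strong docking protein for PI3 kinase. ERRFI1 (MIG6) binds the EGFR kinase and blocks it, LRIG1 and LRIG3 are transmembrane proteins of which LRIG1 promotes receptor loss, and CBL and CBLB are ubiquitin ligases that mark active receptors for degradation. ERRFI1 is itself induced by ERBB signalling, so it is a feedback inhibitor.

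Promoter sequences of 4 of the genes are shown first, as examples of both directions of change described below: CBLB and ERBB2 rose in both lines, and EGFR and ERRFI1 fell in PC9. RefSeq windows (GRCh38.p14) were at hand for 7 of the 9 genes, with 16 start sites in all, those of ERBB3 and CBL were not analysed here, and the 250 bases before the most upstream start of each of the 4 genes are printed 5′ to 3′ on the strand of the gene. Capitals mark matches, on either strand, to the letters GTAAACA (a forkhead motif), TGANTCA (AP-1), CGGAAGT (ETS) and CCAAT.
CBLB, chr3:105869402-105869651, minus strand: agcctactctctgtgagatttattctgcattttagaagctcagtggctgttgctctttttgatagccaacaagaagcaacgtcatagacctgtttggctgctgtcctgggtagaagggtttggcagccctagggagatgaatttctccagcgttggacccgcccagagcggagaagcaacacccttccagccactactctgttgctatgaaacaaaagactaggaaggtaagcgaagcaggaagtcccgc
ERBB2, chr17:39687844-39688093, plus strand: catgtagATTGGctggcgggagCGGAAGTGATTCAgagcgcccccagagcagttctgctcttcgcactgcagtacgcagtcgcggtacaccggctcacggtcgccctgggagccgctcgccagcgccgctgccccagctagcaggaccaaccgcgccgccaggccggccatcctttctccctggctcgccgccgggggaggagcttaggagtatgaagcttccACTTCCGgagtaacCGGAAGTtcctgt
EGFR, chr7:55018767-55019016, plus strand: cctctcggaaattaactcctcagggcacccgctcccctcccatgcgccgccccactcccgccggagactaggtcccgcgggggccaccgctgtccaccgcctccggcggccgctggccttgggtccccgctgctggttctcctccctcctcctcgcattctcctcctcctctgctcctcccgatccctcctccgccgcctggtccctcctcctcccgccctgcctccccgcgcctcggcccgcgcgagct
ERRFI1, chr1:8026310-8026559, minus strand: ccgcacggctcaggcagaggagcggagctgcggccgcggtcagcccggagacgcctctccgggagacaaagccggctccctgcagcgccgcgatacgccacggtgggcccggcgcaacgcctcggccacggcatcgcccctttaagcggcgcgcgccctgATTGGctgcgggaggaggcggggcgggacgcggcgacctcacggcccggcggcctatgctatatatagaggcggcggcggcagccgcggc

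The ERBB2 window held 3 matches to the ETS letters, at -228, -27 and -13 from the start site, and 1 to the AP-1 letters at -222 that shares a base with the first ETS match. It also held CCAAT on the opposite strand at -243, and the ERRFI1 window held CCAAT on the opposite strand at -90. The printed windows of EGFR and CBLB held no match, while another start site of EGFR had 2 AP-1 matches and another of CBLB had 3 CCAAT matches. Of all 35116 RefSeq windows of the same length, 5.69% held the ETS letters, 6.57% the AP-1 letters, 2.98% the forkhead letters and 32% CCAAT. Among the 16 windows of these genes, 1 held ETS, 3 held AP-1, 0 held the forkhead letters and 7 held CCAAT. The windows are not independent: 5 of the 16 overlap another window of the same gene, and the CCAAT matches of the 2 most upstream LRIG1 windows are the same sites.

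Arrays of a group correlated across probe sets with r between 0.9921 and 0.9965, and their median signals ran from 11.1 to 14.5. The epithelial origin of the lines was seen in all 8 epithelial markers looked at, each above the table median in every group. Of 14 markers of leukocytes, endothelium and fibroblasts, 12 were on the table, meaning that a probe set carried their symbol alone. Of these, 4 passed the filter (COL1A1, LUM, CDH5 and PECAM1). PTPRC, CD3D and VWF, of leukocytes, T cells and endothelium, had group means of 3.77 or less. Of the other endothelial markers, PECAM1 was at 835.1 in PC9 DMSO and 506.5 in PC9 erlotinib, and CDH5 at 104.9 and 177.8. In HCC827 both had group means of 6.4 or less. LUM went from 1.4 to 104.4 in PC9 and from 6.0 to 182.9 in HCC827. COL1A1 went from 71.0 to 292.0 in PC9 and from 150.2 to 460.3 in HCC827. The summed signal of the 12 was 1010.6 to 1072.8 in PC9 DMSO, 1043.5 to 1177.2 in PC9 erlotinib, 178.0 to 197.5 in HCC827 DMSO and 641.8 to 713.3 in HCC827 erlotinib, and its part in the results below was not tested. The 3'/5' ratio of the actin control probe sets, which rises as RNA is lost from its 5' end or is copied less far, was 2.18 ± 0.152 (SD, n = 3) in PC9 DMSO, 2.22 ± 0.271 in PC9 erlotinib and 2.17 ± 0.056 in HCC827 DMSO. In HCC827 erlotinib it was 3.03 ± 0.598, with 2.45, 2.99 and 3.64 on arrays 1, 2 and 3. Many HCC827 results are therefore also given with the log2 of this ratio as a covariate or without arrays 2 and 3. The ratio was raised mainly in HCC827 erlotinib, so the covariate and the drug partly overlap in that line. A call can therefore be lost with the covariate while the value changes little.

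**Figure D1:**
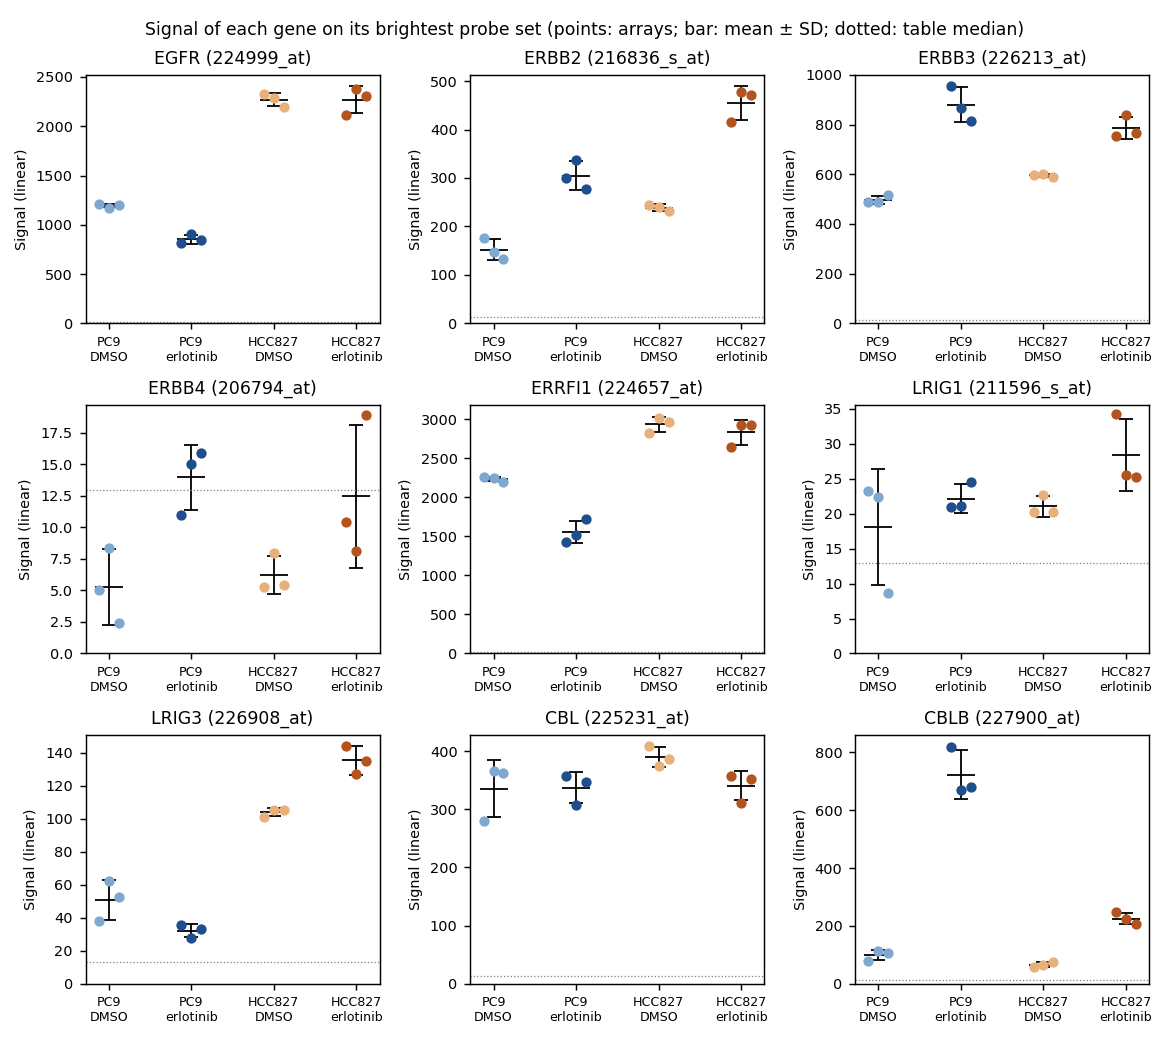
Signal (linear, arbitrary units) on the brightest probe set of each of the 9 genes in the 4 groups; points are arrays, bars show mean ± SD of 3 arrays and the dotted line is the table median of 13. CBLB and ERBB2 sit higher in erlotinib in both lines, EGFR and ERRFI1 sit lower in erlotinib in PC9 alone, and ERBB4 and LRIG1 lie near the dotted line.

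The family held genes that were higher and genes that were lower in erlotinib than in DMSO. On their brightest probe sets, ERBB2, ERBB3 and CBLB were higher in erlotinib in both lines, and EGFR and ERRFI1 were lower in PC9 but were not called in HCC827. Dimmer probe sets of EGFR and the dimmest tested one of ERBB3 were called lower in HCC827. Changes are given as the difference of the group means of log2(signal + 8), called the log2 change here, with its standard error (SE), and a call means that limma's p, adjusted over all 26048 probe sets by Benjamini and Hochberg, was under 0.05. The arrays measure whole cultures, so fewer cells with a transcript and less of it per cell cannot be told apart.

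In PC9, 7 of the 23 probe sets were called higher, 9 lower and 7 neither way. Of all probe sets tested 34.0% were called higher and 26.2% lower there, and the median log2 change was -0.093 for the 23 and 0.049 for all. Of the 26048 probe sets, the called ones were higher in 56.5% of cases as deposited and in 41.7% after median centring of the arrays, a step that lowers every PC9 change by 0.14 on the log2 scale (-0.142); with that centring 7 of the 23 were called higher and 10 lower. With 1 probe set per gene, the brightest, 4 of the 9 genes were called higher (ERBB2, ERBB3, ERBB4 and CBLB) and 3 lower (EGFR, ERRFI1 and LRIG3), against 36.1% and 28.0% of all genes. The ERBB4 probe set passed the filter through PC9 erlotinib alone, so its higher call in PC9 is partly fixed by the filter. Signals of treated and untreated PC9 arrays were fully apart for 17 of the 23 probe sets, against 62.0% of all.

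In HCC827, 8 of the 23 probe sets were called higher, 7 lower and 8 neither way, against 26.2% called higher and 21.9% called lower among all probe sets. The called ones among all were higher in 54.5% of cases as deposited and in 42.8% after median centring, where 5 of the 23 were called higher and 10 lower. By brightest probe set 5 of the 9 genes were called higher (ERBB2, ERBB3, ERBB4, LRIG3 and CBLB) and 0 lower in limma, where 0 were also lower at an unadjusted p under 0.05, against 31.8% and 19.2% of all genes. The arrays did not overlap for 19 of the 23, against 58.7% of all. With the actin ratio as a covariate 6 of the 23 were called higher and 1 lower, and without erlotinib arrays 2 and 3 it was 5 and 2. The 7 called lower were 4 probe sets of EGFR, 2 of CBL and the dimmest tested one of ERBB3. Among the 8 called higher, ERBB4 214053_at passed the filter through HCC827 erlotinib alone, so its higher call in HCC827 is partly fixed by the filter. Also among the 8, the call of ERBB4 206794_at was lost in 14 of 23 alternatives and that of LRIG3 226908_at in 11 of 25.

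The change differed between the lines for 14 of the 23 probe sets by the interaction term, 7 of them more upward in PC9 and 7 more upward in HCC827, against 40.4% of all probe sets called either way.

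**Figure D2:**
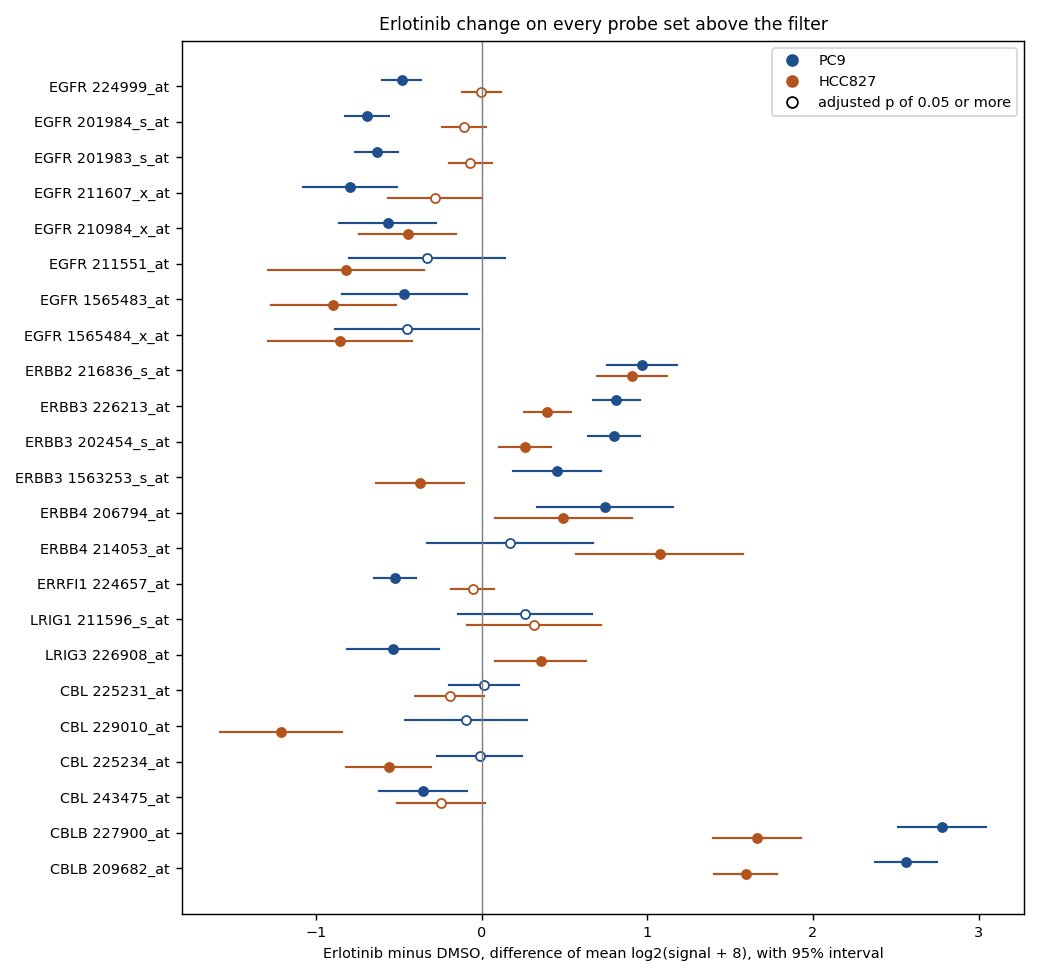
Erlotinib minus DMSO, as the difference of mean log2(signal + 8) with its 95% interval, for each of the 23 tested probe sets in PC9 (blue) and HCC827 (orange); open points had an adjusted p of 0.05 or more. Both CBLB probe sets lie farthest right in both lines, and the 3 brightest EGFR probe sets lie near 0 in HCC827 and between -0.69 and -0.48 in PC9.

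EGFR, the target of erlotinib, was lower after erlotinib in PC9. On its brightest probe set, 224999_at, the PC9 DMSO arrays read 1207.0, 1174.6 and 1203.1 and the erlotinib arrays 817.1, 905.7 and 841.8. The groups did not overlap, and the log2 change was -0.48 ± 0.056 (SE; adjusted p = 1.27e-06), which left 71.5% of the mean DMSO signal. In HCC827 the DMSO arrays read 2329.9, 2282.2 and 2200.3 and the erlotinib arrays 2117.6, 2380.8 and 2309.1. These overlapped fully, with a change of -0.002 (95% interval -0.12 to 0.12, adjusted p = 0.977). The difference between the changes was -0.48 ± 0.079 (adjusted p = 0.000153).

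The other bright EGFR probe sets showed the same split. The probe set 201984_s_at changed by -0.69 ± 0.062 in PC9 (adjusted p = 6.04e-08) and by -0.11 ± 0.062 in HCC827 (adjusted p = 0.176), and 201983_s_at by -0.63 ± 0.061 (adjusted p = 1.51e-07) and -0.067 ± 0.061 (adjusted p = 0.388). Their interaction terms were -0.59 (adjusted p = 5.92e-05) and -0.57 (adjusted p = 7.52e-05). The next brightest, 211607_x_at, fell in PC9 by 0.80 on the log2 scale (adjusted p = 7.44e-05) and had a change of -0.28 in HCC827 (adjusted p = 0.0934), which was called with median centring (-0.36, adjusted p = 0.0424). Its interaction of -0.51 (adjusted p = 0.0406) was lost in 13 of 22 alternatives, among them 8 fits without 1 array, where adjusted p reached 0.109. Those arrays were PC9 DMSO 1 and 3, PC9 erlotinib 1 and 3, HCC827 DMSO 2 and 3 and HCC827 erlotinib 2 and 3, and the change without them lay between -0.51 and -0.41.

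Dimmer EGFR probe sets gave another picture in HCC827. The suffix _x_at marks a probe set that can also match other transcripts. The probe set 210984_x_at fell in both lines, by 0.56 on the log2 scale in PC9 (adjusted p = 0.00205) and by 0.45 in HCC827 (adjusted p = 0.0139). On 1565483_at the HCC827 DMSO arrays read 70.5, 49.6 and 67.7 and the erlotinib arrays 44.3, 28.0 and 20.4, a log2 change of -0.89 ± 0.179 (adjusted p = 0.000608). On 1565484_x_at and 211551_at the changes in HCC827 were -0.85 (adjusted p = 0.00258) and -0.82 (adjusted p = 0.00619). The erlotinib arrays of 1565483_at and 1565484_x_at fell in the order of their actin ratios, from 2.45 to 3.64, and those of 211551_at did not. With the ratio as a covariate the 4 changes were -0.45, -0.46, -0.74 and -0.32 for 1565483_at, 1565484_x_at, 211551_at and 210984_x_at, with adjusted p from 0.134 to 0.298. Without erlotinib arrays 2 and 3, which leaves 1 erlotinib array, the changes were -0.42 (adjusted p = 0.112), -0.42 (adjusted p = 0.234), -1.14 (adjusted p = 0.0139) and -0.54 (adjusted p = 0.0684) in the same order. Of the 4, 211551_at and 210984_x_at thus had lower values than with all arrays, and 211551_at was called.

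In PC9 the 3 dimmest tested EGFR probe sets had group means of 15.43 or less. There 1565483_at went from 9.4, 8.2 and 8.7 in DMSO to 4.2, 4.0 and 4.2 in erlotinib, a called change of -0.47 (adjusted p = 0.0329) that was lost with no filter (adjusted p = 0.0623), with a constant of 32 in place of 8 (-0.17, adjusted p = 0.179) and without any 1 of the 6 PC9 arrays (-0.49 to -0.44, adjusted p up to 0.0751). The changes of 1565484_x_at and 211551_at, -0.45 and -0.33, were not called in PC9 (adjusted p = 0.0673 and 0.215). That of 1565484_x_at was called in 5 of 21 alternatives, with a constant of 1 (-1.33, adjusted p = 0.00807), with median centring (-0.59, adjusted p = 0.011), in PC9 alone (adjusted p = 0.0447) and without HCC827 erlotinib array 1 or 3 (adjusted p = 0.0419 and 0.0457), and it was -0.28 without PC9 DMSO array 2. That of 211551_at was -0.067 without PC9 erlotinib array 1 and -0.18 without PC9 DMSO array 2. In all, 6 of 8 EGFR probe sets were called lower in PC9 and 4 of 8 in HCC827, against 26.2% and 21.9% of all probe sets. The 3 brightest were among the 6 and not among the 4, and probe sets of 1 gene are not independent. Averaging the log2 signals of all 9 EGFR probe sets gave -0.57 in PC9 and -0.38 in HCC827 (adjusted p = 0.00088), and the difference between the lines was then -0.19 (adjusted p = 0.181).

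ERBB2, the partner receptor without a ligand of its own, about doubled in both lines. On 216836_s_at, the only ERBB2 probe set above the filter, the PC9 DMSO arrays read 176.1, 147.6 and 133.1 and the erlotinib arrays 299.6, 337.5 and 278.2. All erlotinib arrays were higher, with a ratio of mean signals of 2.00 and a log2 change of 0.97 ± 0.10 (adjusted p = 3.16e-07). In HCC827 the values were 244.8, 240.4 and 231.3 in DMSO and 415.4, 478.0 and 472.1 in erlotinib. The arrays again did not overlap, with a ratio of 1.91 and a change of 0.91 ± 0.10 (adjusted p = 1.59e-06). The changes in the lines differed by 0.065 with a 95% interval of -0.23 to 0.36 (adjusted p = 0.745). The HCC827 rise was 0.88 (adjusted p = 0.000604) with the actin covariate and 0.78 (adjusted p = 0.0011) without erlotinib arrays 2 and 3. Averaged with the other ERBB2 probe sets, whose signals stayed at 15.9 or less on every array, the changes were 0.40 (adjusted p = 0.0015) and 0.44 (adjusted p = 0.00108).

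ERBB3, the docking receptor for PI3 kinase, rose more in PC9 than in HCC827. On 226213_at the PC9 arrays went from 488.1, 487.0 and 514.6 in DMSO to 954.3, 868.2 and 815.1 in erlotinib, a log2 change of 0.81 ± 0.067 (adjusted p = 2.31e-08). The HCC827 arrays went from 596.7, 600.1 and 588.2 to 754.6, 837.7 and 767.4, a change of 0.40 ± 0.067 (adjusted p = 0.000137). Neither line had overlapping arrays, and the PC9 change was the larger by 0.42 ± 0.095 (adjusted p = 0.00244). The second ERBB3 probe set, 202454_s_at, rose by 0.80 ± 0.075 in PC9 (adjusted p = 1.03e-07) and by 0.26 ± 0.075 in HCC827 (adjusted p = 0.00832), and the interaction was 0.54 (adjusted p = 0.000757). Its HCC827 rise was 0.19 (adjusted p = 0.0694) with median centring and 0.28 (adjusted p = 0.0585) without erlotinib arrays 2 and 3.

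The third tested ERBB3 probe set disagreed with these in HCC827. On 1563253_s_at the PC9 arrays read 21.6, 25.8 and 22.8 in DMSO and 33.6, 41.6 and 30.6 in erlotinib, a rise of 0.46 ± 0.125 (adjusted p = 0.00474), but with quantile normalization the value was 0.23 (adjusted p = 0.11). The HCC827 arrays read 16.1, 17.4 and 14.8 in DMSO and 11.4, 11.5 and 9.0 in erlotinib, a fall of 0.37 on the log2 scale (change -0.37, adjusted p = 0.0216). It stood on signals around the table median and was lost with the actin covariate (-0.22, adjusted p = 0.417). It was also lost without HCC827 DMSO array 1 (-0.37, adjusted p = 0.0536) or 2 (-0.33, adjusted p = 0.0749) and without erlotinib array 3 (-0.31, adjusted p = 0.0845). With the log2 signals of all 5 ERBB3 probe sets averaged, the PC9 change was 0.47 and the HCC827 change 0.13 (adjusted p = 0.133).

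ERBB4, the remaining neuregulin receptor, had signals close to the table median or below it. Its probe set 206794_at passed the filter through PC9 erlotinib alone and 214053_at through HCC827 erlotinib alone, the groups in which they were highest. Their higher calls in those lines, and the interaction of 214053_at, are thus partly fixed by the filter and are given as values. On 206794_at the PC9 arrays read 5.0, 8.4 and 2.4 in DMSO and 11.0, 15.0 and 15.9 in erlotinib, a log2 change of 0.75 ± 0.194 (adjusted p = 0.00328). The HCC827 arrays read 5.3, 8.0 and 5.4 in DMSO and 10.4, 8.1 and 18.9 in erlotinib, and the change of 0.49 ± 0.194 (adjusted p = 0.0454) rested largely on the value of 18.9. It was 0.28 (adjusted p = 0.251) without erlotinib array 3, and it missed the threshold in 14 of 23 alternatives, including fits without PC9 erlotinib array 2 or 3, HCC827 DMSO array 1 or 3 or HCC827 erlotinib array 1 (0.45 to 0.55). On 214053_at the order of the lines was the other way round, with 0.17 ± 0.237 in PC9 (adjusted p = 0.551) and 1.08 ± 0.237 in HCC827 (adjusted p = 0.00136). There the HCC827 arrays went from 3.4, 4.0 and 6.9 to 21.7, 16.2 and 18.5, and the change was 0.98 (adjusted p = 0.0636) with the actin covariate. The interaction of -0.90 ± 0.335 (adjusted p = 0.041) was lost in 14 of 21 alternatives, among them the fits without PC9 DMSO array 2 (-0.62) or 3, PC9 erlotinib array 2 or 3, HCC827 DMSO array 1 or 2 and HCC827 erlotinib array 1 or 3 (up to an adjusted p of 0.107). In PC9 the value was -0.19 (adjusted p = 0.366) without DMSO array 1, the array that read 0.5. The table gives no call of presence, so these values do not show whether ERBB4 was detected in DMSO.

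Among the inhibitors, ERRFI1 fell in PC9 and was not called in HCC827. Its single probe set, 224657_at, read 2254.0, 2240.3 and 2197.4 in PC9 DMSO and 1431.0, 1519.4 and 1714.7 in PC9 erlotinib, and these did not overlap. The log2 change was -0.52 ± 0.061 (adjusted p = 1.32e-06), which left 69.7% of the DMSO signal. In HCC827 it read 2821.1, 3015.0 and 2959.6 in DMSO and 2644.7, 2921.4 and 2923.4 in erlotinib, with a change of -0.052 (95% interval -0.18 to 0.077, adjusted p = 0.506). The lines differed by -0.47 ± 0.086 (adjusted p = 0.000392), and this call held in each of the 24 alternatives, with adjusted p up to 0.0154.

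LRIG3 moved in opposite directions in the lines. On 226908_at the PC9 arrays read 38.3, 62.2 and 52.3 in DMSO and 35.3, 28.0 and 33.3 in erlotinib, a change of -0.54 ± 0.131 (adjusted p = 0.00202). The HCC827 arrays read 101.3, 105.5 and 105.1 in DMSO and 144.3, 126.9 and 135.2 in erlotinib, a change of 0.36 ± 0.131 (adjusted p = 0.0335). Arrays overlapped in neither line, and the interaction was -0.89 ± 0.185 (adjusted p = 0.00114) and was called in each of 24 alternatives. The rise in HCC827 alone was less secure: it was lost in 11 of 25 alternatives with values from 0.28 to 0.44, among them quantile normalization (adjusted p = 0.0795) and median centring (adjusted p = 0.0718). It was also lost without any of the 3 HCC827 DMSO arrays or erlotinib array 1 or 3, with values from 0.31 to 0.37 and adjusted p up to 0.0995. With the actin covariate the HCC827 change was 0.32 and was not called (adjusted p = 0.265). Without erlotinib arrays 2 and 3, which leaves 1 erlotinib array, it was 0.44.

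LRIG1 was dim and was not called. On 211596_s_at the PC9 arrays read 23.3, 22.4 and 8.6 in DMSO and 20.9, 21.1 and 24.5 in erlotinib, and the HCC827 arrays 20.2, 22.7 and 20.2 in DMSO and 34.3, 25.6 and 25.2 in erlotinib. The changes were 0.26 (95% interval -0.14 to 0.67, adjusted p = 0.247) and 0.32 (95% interval -0.087 to 0.72, adjusted p = 0.185). Without PC9 DMSO array 3, which read 8.6, the PC9 value was -0.034 (adjusted p = 0.852). In HCC827 the arrays did not overlap, and the value became called without that same PC9 array (0.32, adjusted p = 0.0471) and with the actin covariate (0.74, adjusted p = 0.0472). LRIG2, the third LRIG protein, was placed in the list of other inhibitors counted below, and its action on the receptors was not tested. Its signal rose in both lines, from 348.7 ± 37.2 to 708.8 ± 55.8 in PC9 (adjusted p = 6.3e-08) and from 326.0 ± 25.5 to 453.3 ± 34.6 in HCC827 (adjusted p = 0.000484). LRIG2 was named here after its values were seen.

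CBL, a ubiquitin ligase that binds phosphorylated EGFR, showed no call in either line on its brightest probe set, 225231_at. The PC9 arrays read 279.2, 365.0 and 362.0 in DMSO and 357.3, 307.3 and 346.6 in erlotinib, and the HCC827 arrays 408.0, 373.8 and 387.2 in DMSO and 357.9, 311.4 and 352.7 in erlotinib. The changes were 0.014 (95% interval -0.20 to 0.22, adjusted p = 0.911) and -0.19 (95% interval -0.40 to 0.018, adjusted p = 0.123). The HCC827 value was called in separate fits with median centring (-0.26, adjusted p = 0.0313), with the arrays of that line alone (-0.19, adjusted p = 0.042) and with all 5 CBL probe sets averaged (-0.52, adjusted p = 0.00039). On 243475_at CBL was lower by 0.36 on the log2 scale in PC9 (change -0.36, adjusted p = 0.0219). That call was lost without PC9 DMSO array 1 (adjusted p = 0.0633) and without erlotinib array 1 (-0.22, adjusted p = 0.132) or 2 (adjusted p = 0.0523).

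Other CBL probe sets were lower in HCC827 erlotinib, where the actin ratio was higher. On 229010_at the HCC827 arrays read 291.0, 300.8 and 348.2 in DMSO and 187.6, 136.9 and 86.2 in erlotinib, whereas the PC9 arrays ran from 408.5 to 442.5 in DMSO and from 378.3 to 447.2 in erlotinib. The changes were -1.21 ± 0.174 (adjusted p = 2.74e-05) and -0.093 ± 0.174 (adjusted p = 0.664), with an interaction of 1.11 (adjusted p = 0.00185) that was 0.52 (adjusted p = 0.0656) with the actin ratio as a covariate. The 3 erlotinib arrays of HCC827 fell in the order of their actin ratios of 2.45, 2.99 and 3.64, and the change was -0.58 (adjusted p = 0.0191) with that ratio as a covariate and -0.71 (adjusted p = 0.00073) on array 1 alone. On 225234_at the HCC827 change was -0.56 (adjusted p = 0.00115) with an interaction of 0.55 (adjusted p = 0.0175), and the HCC827 change was -0.23 (adjusted p = 0.29) with the covariate and -0.37 (adjusted p = 0.109) on array 1 alone. The part of the ratio in these falls was not tested beyond these fits.

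**Figure D3:**
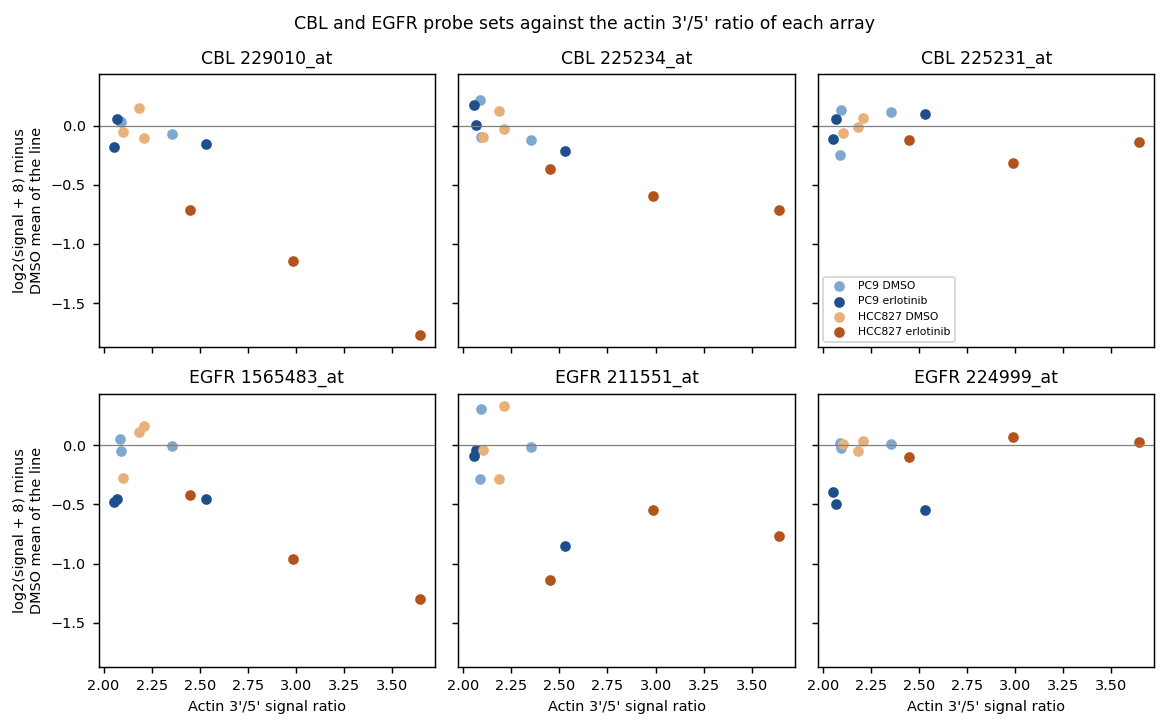
Log2(signal + 8) minus the DMSO mean of the same line against the actin 3'/5' ratio of the array, for 3 CBL and 3 EGFR probe sets on all 12 arrays. On CBL 229010_at the 3 HCC827 erlotinib arrays lie at -0.71, -1.15 and -1.77 as the ratio goes from 2.45 to 3.64, whereas EGFR 224999_at lies between -0.10 and 0.068 on the same arrays.

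CBLB, the close relative of CBL, had the largest rises among the 23 tested probe sets in both lines. On 227900_at the PC9 arrays read 79.7, 111.5 and 105.9 in DMSO and 820.0, 669.7 and 679.7 in erlotinib. The mean signal was 7.30 times higher, and the log2 change was 2.78 ± 0.125 (adjusted p = 1.11e-11), which ranked 166 from the top of 26048 probe sets. In HCC827 the arrays read 57.2, 65.5 and 75.1 in DMSO and 247.0, 222.5 and 206.2 in erlotinib, 3.42 times higher in the mean. The log2 change of 1.66 ± 0.125 (adjusted p = 1.87e-08) ranked 278. The PC9 change was the larger by 1.12 ± 0.177 (adjusted p = 0.000104).

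The other bright CBLB probe set gave nearly the same values. On 209682_at the log2 change was 2.56 ± 0.089 in PC9 (adjusted p = 4.79e-13) and 1.59 ± 0.089 in HCC827 (adjusted p = 5.25e-10), and the interaction was 0.97 ± 0.126 (adjusted p = 1.55e-05). The third probe set, 208348_s_at, was under the filter, at 1.7, 0.5 and 1.1 in PC9 DMSO and 5.3, 3.5 and 6.7 in PC9 erlotinib. In HCC827 the changes of the bright pair were 1.66 and 1.57 with the actin covariate and 1.79 and 1.60 without erlotinib arrays 2 and 3. Of the 23 probe sets, the 2 of CBLB were called and at least 2-fold higher on the log2(signal + 8) scale in PC9, as were 8.51% of all. In HCC827 these 2 were, and ERBB4 214053_at, which passed the filter through HCC827 erlotinib alone, as were 4.15% of all. In PC9, ERBB2 216836_s_at and ERBB4 206794_at stayed below 2-fold on that scale, though their ratios of mean signals were 2.00 and 2.65.

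Without drug, most of the 23 probe sets were lower in PC9 than in HCC827. In DMSO 13 were called lower and 4 higher in PC9, against 37.6% lower and 34.9% higher of all probe sets. All 8 EGFR probe sets were among the 13, from -0.92 ± 0.056 on 224999_at to -2.17 ± 0.205 on 1565484_x_at. The ratio of mean signals ranged from 0.526 to 0.099 on these. However, 1565483_at and 1565484_x_at lay under the table median in PC9, at 8.77 and 5.0 in DMSO, and passed the filter through HCC827 alone. Their lower calls in PC9 are thus partly fixed by the filter. Of the remaining EGFR probe sets, 210984_x_at had the largest difference, -2.10 ± 0.138, with a ratio of 0.227. ERBB2 (-0.63, adjusted p = 2.5e-05), ERRFI1 (-0.39, adjusted p = 1.95e-05) and LRIG3 (-0.95, adjusted p = 5.52e-06) were lower in PC9 too, whereas CBLB was higher there (0.53 and 1.04 on its probe sets, adjusted p = 0.00118 and 1.7e-08). With the 3 ERBB2 probe sets averaged, the ERBB2 difference was -0.17 (adjusted p = 0.104). The 2 brightest ERBB3 probe sets were lower in PC9 (-0.26 and -0.69) and 1563253_s_at was higher (0.38, adjusted p = 0.0119). CBL 229010_at was higher in PC9 (0.45, adjusted p = 0.0283), a call lost without PC9 DMSO array 1 or 2 or HCC827 DMSO array 1 or 2 (0.40 to 0.44, adjusted p up to 0.0871). In erlotinib 6 were called higher and 13 lower in PC9, against 74.3% of all probe sets called either way.

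The order of the 4 groups differed between the genes. For EGFR it was HCC827 DMSO (mean signal 2271), HCC827 erlotinib (2269), PC9 DMSO (1195) and PC9 erlotinib (854.9), and only the first neighbours overlapped. ERRFI1 had the same order, with means of 2932, 2830, 2231 and 1555, and again only the first neighbours overlapped. ERBB2 ran from HCC827 erlotinib (455.2) through PC9 erlotinib (305.1) and HCC827 DMSO (238.8) to PC9 DMSO (152.3), with no overlap between neighbours. For ERBB3 the erlotinib groups of the lines came first and overlapped, at 879.2 in PC9 and 786.6 in HCC827, and HCC827 DMSO (595.0) and PC9 DMSO (496.6) followed. On 226213_at PC9 minus HCC827 was -0.26 in DMSO and 0.16 (adjusted p = 0.0433) in erlotinib. The latter call was lost in 14 of 24 alternatives, among them the fits without PC9 DMSO array 3, PC9 erlotinib array 1 or 2, any HCC827 DMSO array and HCC827 erlotinib array 1 or 3 (0.097 to 0.17, adjusted p up to 0.211). CBLB ran from PC9 erlotinib (723.1) through HCC827 erlotinib (225.2) and PC9 DMSO (99.03) to HCC827 DMSO (65.93), with no overlap between neighbours.

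The 12 probe sets under the filter had group means below the table median of 13, and no call was made on them. They were 1 of EGFR, 2 of ERBB2, 2 of ERBB3, 2 of ERBB4, 3 of LRIG1, 1 of CBL and 1 of CBLB. The EGFR one, 211550_at, read 8.8, 11.3 and 10.4 in PC9 DMSO and 3.5, 4.6 and 1.5 in PC9 erlotinib, and 9.8 to 13.5 in HCC827 DMSO and 11.4 to 12.4 in HCC827 erlotinib. Just inside the filter were ERBB4 206794_at, ERBB4 214053_at and LRIG1 211596_s_at, with highest group means of 13.97, 18.8 and 28.37.

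The wider pathway was described by lists of genes, each gene by its brightest probe set. A gene was counted as on the table only where a probe set carried its symbol alone. The counts stand beside the 36.1% of all genes called higher and 28.0% called lower in PC9, and 31.8% and 19.2% in HCC827. Ligands of the receptors were on the table for 9 of 11 genes, and 7 passed the filter: 1 rose, 3 fell and 3 were not called in PC9, and 2 rose, 3 fell and 2 were not called in HCC827. HBEGF, a ligand of EGFR and ERBB4, went opposite ways in the lines, from 401.9 ± 13.9 to 126.5 ± 18.3 in PC9 and from 156.6 ± 4.6 to 763.5 ± 57.8 in HCC827. EREG, a ligand of EGFR and ERBB4, fell in both lines, from 270.0 ± 39.1 to 132.1 ± 30.2 in PC9 and from 2121 ± 99.9 to 1543 ± 112 in HCC827. NRG1, a ligand of ERBB3 and ERBB4, fell from 550.0 ± 22.1 to 373.2 ± 26.9 in HCC827, and in PC9 it was called lower under the table median, at 7.07 ± 0.814 in DMSO and 2.47 ± 2.68 in erlotinib. With the actin covariate the HCC827 calls of EREG (-0.49, adjusted p = 0.0717) and NRG1 (-0.49, adjusted p = 0.108) were lost. The values without it were -0.46 and -0.55, so the EREG value did not shrink. The NRG1 calls were also lost with a constant of 1 in HCC827 (-0.56, adjusted p = 0.21) and of 32 in PC9 (-0.18, adjusted p = 0.0543). TGFA fell in HCC827, from 576.3 ± 12.3 to 399.3 ± 21.6.

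Of 30 adaptors and kinases downstream of the receptors 22 were on the table and passed the filter, and 11 rose, 4 fell and 7 were not called in PC9, while 7 rose, 2 fell and 13 were not called in HCC827, where 7 of 22 is the same share as the 31.8% of all genes called higher. The largest called changes in PC9 were those of the RAS activator SOS2 (1.62 ± 0.102) and the docking proteins GAB1 (1.30 ± 0.113) and GAB2 (0.89 ± 0.152). In HCC827 they were the transcription factor STAT5A (1.49 ± 0.173), GAB2 (1.37 ± 0.152) and the phospholipase PLCG1 (1.09 ± 0.083). The median log2 change was 0.23 in PC9 and 0.090 in HCC827, against 0.048 and 0.067 over all genes. The count of lower genes in HCC827 ran from 0 to 5 over the alternatives. It was 0 in limma with the actin covariate and without HCC827 DMSO array 1 (2 at an unadjusted p under 0.05 in each), and 1 without PC9 erlotinib array 2, HCC827 DMSO array 2 or HCC827 erlotinib array 1 or 3.

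For receptor ubiquitination and endosomal sorting all 23 genes were measured. In PC9, 7 rose, 9 fell and 7 were not called, and in HCC827 it was 9, 4 and 10, with medians of -0.13 and 0.087. Against the 36.1% and 31.8% of all genes called higher, 7 and 9 of 23 lie near the background. NEDD4L, a ubiquitin ligase, fell in PC9 (change -1.02 ± 0.074) and rose in HCC827 (0.45 ± 0.074). UBASH3B, which binds CBL and opposes receptor degradation, fell in both (-0.81 ± 0.065 and -0.60 ± 0.065), and AP2A1 of the clathrin adaptor rose in PC9 (0.56 ± 0.185). The AP2A1 call was lost with median centring (0.42, adjusted p = 0.0563), with quantile normalization (0.37, adjusted p = 0.0886) and without PC9 DMSO array 2 (0.41, adjusted p = 0.0807). RAB11FIP1, which acts in receptor recycling, rose in HCC827 (0.63 ± 0.068). The count of higher genes moved with scaling and with single arrays. With median centring it was 0 in PC9 in limma (1 at an unadjusted p under 0.05) and 2 in HCC827. In PC9 it was 3 without PC9 erlotinib array 1 and 4 without PC9 DMSO array 1 or 3 or erlotinib array 2. In HCC827 it was 4 without HCC827 DMSO array 1, 5 without erlotinib array 3, and 3 with the actin covariate or without erlotinib arrays 2 and 3.

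Among other inhibitors of ERBB or RAS signalling more genes fell than rose in both lines. Of 20 genes 17 were on the table and 16 passed the filter, of which 3 rose, 10 fell and 3 were not called in PC9, with a median of -0.91, and 2 rose, 7 fell and 7 were not called in HCC827, with a median of -0.14. Of all genes 28.0% fell in PC9 and 19.2% in HCC827. SPRY4, a Sprouty feedback inhibitor, went from 412.0 ± 28.3 to 13.1 ± 1.65 in PC9 and from 75.77 ± 4.65 to 21.43 ± 2.55 in HCC827. DUSP6, the phosphatase of ERK, went from 1358 ± 272 to 68.1 ± 7.23 and from 1252 ± 68.4 to 365.5 ± 42.3. SPRY1 fell in PC9 by 2.64 on the log2 scale (-2.64 ± 0.090) and the phosphatase DUSP5 in HCC827 by 1.07 (-1.07 ± 0.128). The changes of ERRFI1, a feedback inhibitor too, were -0.52 and -0.052.

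Of 7 transcription factors known to act on ERBB genes 6 passed the filter. In PC9, 5 rose and 1 was not called, in HCC827, 4 rose and 2 were not called, and all 6 values lay above 0 in both lines, with medians of 0.95 and 0.40, where 36.1% and 31.8% of all genes were called higher. ELF3, an ETS factor of epithelia, rose by 1.84 ± 0.077 in PC9 and 0.58 ± 0.077 in HCC827. FOXO4 rose by 1.26 ± 0.113 and 1.80 ± 0.113 and FOXO1 by 1.01 ± 0.092 and 0.75 ± 0.092. The FOXO factors are held out of the nucleus by AKT and are known to raise ERBB3 when that kinase is inhibited; protein and its location were not measured here.

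**Figure D4:**
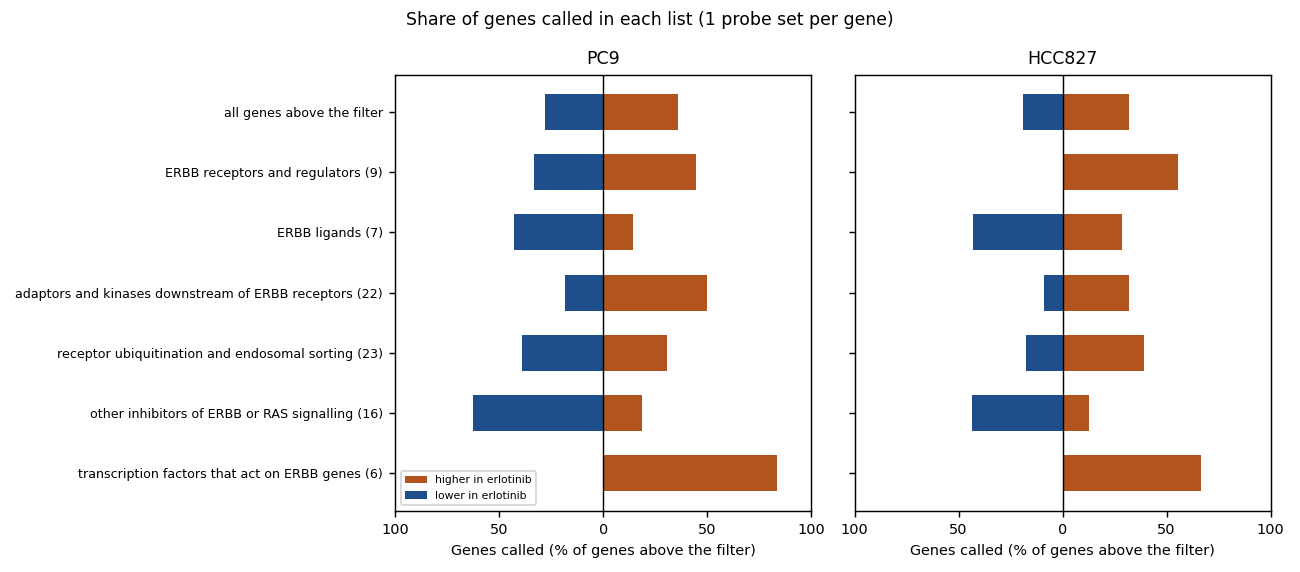
Share of the genes above the filter that were called higher (right) or lower (left) in erlotinib, in percent, for the 9 genes, for each list and for all genes, in PC9 and HCC827 (1 probe set per gene, list size in brackets). In PC9 36.1% of all genes were higher and 28.0% lower, the other inhibitors lean to the left in both lines and the 6 transcription factors lie to the right. The 9 genes include ERBB4, whose probe set passed the filter through PC9 erlotinib alone.

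For each of the 9 genes, the genes with the most similar profile were taken by Pearson's r of log2(signal + 8) over the 12 arrays among 13164 others. The 12 arrays form 4 groups of 3, so r mostly compares 4 group means and is a description. The 3 nearest of EGFR were DDX24 (0.997), LAP3 (0.996) and TRNP1 (0.995), and those of CBLB were C16orf46 (0.995), C4orf54 (0.993) and HEG1 (0.992). Those of ERBB2 were CYTH3 (0.990), MCAM (0.989) and MBTPS1 (0.983), and those of ERBB3 were ZNF600 (0.992), C1RL (0.989) and HLA-DMA (0.987). ERRFI1 was nearest to MSANTD3 (0.987), TANGO6 (0.985) and MT1H (0.984), and LRIG3 to MYEF2 (0.996), FAM201A (0.995) and TMX4 (0.994). The dim or little changed genes had lower values: CBL reached 0.900 with LRIF1 and 0.889 with FGFR1OP2 and ZC3HAV1L, ERBB4 0.919 with HIBADH, 0.886 with LOC90246 and 0.881 with TPM1, and LRIG1 0.844 with SCCPDH, 0.789 with RHOU and 0.780 with ELMOD3. Among the 9 genes themselves, r was highest between EGFR and ERRFI1 (0.954), EGFR and LRIG3 (0.954), ERRFI1 and LRIG3 (0.903) and ERBB3 and CBLB (0.850). It was lowest between ERRFI1 and CBLB (-0.775).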

How the data were processed

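The authors made the deposited table with MAS5, per the submitters' processing notes, with every probe set given a linear intensity on every array; RNA had been amplified and biotin-labelled with NuGEN reagents, per the labels' protocols. Each array had a 2% trimmed mean of 150, and no detection call was used here. Of 54675 probe sets 62 were controls, 41091 had 1 gene symbol in GEO's platform annotation, 1801 several and 11721 none; none of the several-symbol ones belonged to the 9 genes. Probe sets with 1 symbol were kept where a group mean of log2(signal + 8) reached that of the table median, which left 26048. They were tested singly with limma 3.58.1 (R 4.3.3), in a fit of 4 group means to all 12 arrays, the variances being moderated along a trend with intensity. The procedure was also run on simulated data with independent noise, where far fewer probe sets changed than were called here. That run does not test the scaling of the arrays or the actin ratio. Members, gene lists and tests were chosen with earlier results of these data known. Named genes were all probe sets of the 9 genes, the 3 largest called changes of each list in each line and the 3 nearest profiles; LRIG2 and genes named to describe a count are exceptions. Promoter letters came from RefSeq. The alternatives were constants of 1 and 32, quantile normalization, median centring, no filter, a filter at the 70th percentile (signal 83.5), 1 or the mean of all probe sets per gene, no trend, the arrays of each line alone, a replicate block, the actin covariate and arrays left out. The number of arrays limited the precision.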

Additional observations from a re-analysis of the deposited data

Results flagged for a closer look

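For 14 probe sets of the 9 genes the erlotinib change differed between the lines by the interaction term (PC9 change minus HCC827 change, log2). The PC9 change was the lower one for EGFR on 201983_s_at (-0.566), 201984_s_at (-0.588), 211607_x_at (-0.512) and 224999_at (-0.478), for ERBB4 on 214053_at (-0.903), for ERRFI1 on 224657_at (-0.47) and for LRIG3 on 226908_at (-0.891). It was the higher one for ERBB3 on 1563253_s_at (0.829), 202454_s_at (0.537) and 226213_at (0.415), for CBL on 225234_at (0.549) and 229010_at (1.114) and for CBLB on 209682_at (0.966) and 227900_at (1.118). ERBB4 214053_at passed the filter through HCC827 erlotinib alone, so its term is partly fixed by the filter. That term was lost in 14 of 21 alternatives. With the actin 3'/5' ratio as a covariate 10 of the 23 probe sets were called, 5 each way, and the terms of EGFR 211607_x_at (-0.35), ERBB4 214053_at (-0.81), CBL 225234_at (0.23) and CBL 229010_at (0.52) were not. Without HCC827 erlotinib arrays 2 and 3 it was 6 and 5. Groups of 3 arrays were not searched for outlying arrays.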

How the results depend on the processing

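Over 25 alternative settings, 2409 of 2593 values of the 115 results on the 9 genes kept their direction and their side of the threshold, 115 were no longer called, 30 became called, 38 uncalled ones moved and 1 reversed. The reversed one was CBL 225231_at between the lines in erlotinib, -0.015 by itself and 0.516 with the mean of all CBL probe sets. In HCC827, where 8 of the 23 probe sets were called higher and 7 lower, median centring gave 5 higher, the stricter filter 3 lower, the actin covariate 1 lower, and leaving out erlotinib arrays 2 and 3 gave 5 higher and 2 lower. The counts over the whole table were 15694 in PC9, 12521 in HCC827, 10525 for the interaction, 18893 between the lines in DMSO and 19350 in erlotinib. With 1 probe set per gene, which tests fewer features, they were 8521, 6818, 5954, 10035 and 10070, and with the mean of all probe sets 8035, 6479, 5555, 9459 and 9598. The actin covariate left 7059 in HCC827, and without erlotinib arrays 2 and 3 there were 7605 in HCC827 and 6930 for the interaction. Other causes were not tested. Quantile normalization gave a share of higher calls of 47.6% in PC9 and 49.1% in HCC827.

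Deviations from the group means had r from -0.2534 to 0.1445 for same-numbered arrays of a line and from -0.1975 to 0.217 for different-numbered ones. With 3 arrays per group these values cannot decide whether replicate numbers pair the arrays. With the replicate number as a block, 3 calls were lost, ERBB4 206794_at in HCC827 (0.494, adjusted p = 0.0571), ERBB4 214053_at in the interaction (-0.903, adjusted p = 0.0528) and ERBB3 226213_at between the lines in erlotinib (0.158, adjusted p = 0.0579). Signals near the table median of 13, as for ERBB4, LRIG1 and the dim EGFR and ERBB3 probe sets, limit what can be said of those genes.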
